A study of Drosophila melanogaster with 3 samples.

Results

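The transfer RNA (tRNA) genes of the Drosophila melanogaster nuclear genome were examined for binding peaks of Phol in whole embryos. Every annotated gene whose symbol begins with tRNA: on the arms 2L, 2R, 3L, 3R, 4 and X was taken, which gave 295 genes of the 18164 genes annotated on those arms. A tRNA gene was counted as having a peak where the summit of a peak, its point of strongest signal, lay inside the gene or within 250 bp of either end. The data were chromatin immunoprecipitation sequencing (ChIP-seq) from 3 biological replicates of mixed-sex embryos aged 0 to 16 h. The flies came from a stable transgenic line whose Phol was fused at its C terminus to enhanced green fluorescent protein (eGFP), and an anti-GFP antibody was used on sonicated chromatin. All samples formed 1 group with the same genotype, antibody and age, so no condition could be compared with another. The peaks were those of the fusion protein in embryos of mixed ages and all tissues. The driver and insertion site of the transgene, and whether the endogenous gene was intact, were not stated in these sources. Peak lists were deposited for each replicate, for the replicates pooled, and for the peaks that the submitters found reproducible. The lists held no counts, so read depth was unknown. Each replicate list and the pooled list held 30000 peaks, and the reproducible list held 10264, all of them among the 10264 strongest peaks of the pooled list. The labels call the samples biological replicates but do not say which embryo collections they came from, so the SDs below cover the spread between these 3 samples.

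tRNA genes are transcribed by RNA polymerase III from a promoter that lies within the gene. Transcription factor TFIIIC binds the internal A and B boxes and places TFIIIB just upstream of the start, and TFIIIB recruits the polymerase. Phol, a paralog of Pho, belongs to the Polycomb group and binds DNA through zinc fingers; it recognises sites built around the letters GCCAT. Genes transcribed by RNA polymerase II carry their promoters mostly outside the transcribed sequence, and many tRNA genes in the fly lie between or within such genes.

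The sequences below are 6 of the 13 tRNA genes with a reproducible Phol summit, shown because the B box lies inside them while the summits lay outside. They include the genes of the top 2 summits but not the genes of all the stronger ones; the other 7 are not shown. They were read from the RefSeq release 6 genome assembly (dm6), on each gene's own strand, with the letters matching GTTCNANNC, the core of the B box, in capitals. tRNA:Tyr-GTA-1-8 lies at chr3R:8669081-8669174 on the minus strand and contains an intron. tRNA:Gln-CTG-2-3 lies at chr2L:2009538-2009609, tRNA:Asp-GTC-1-5 at chr2L:8541761-8541832 and tRNA:Lys-TTT-1-1 at chr2L:8290727-8290799, all on the plus strand. tRNA:Leu-TAA-2-1 lies at chr3R:24112964-24113047 and tRNA:Pro-CGG-2-1 at chrX:18565764-18565835, also on the plus strand.
tRNA:Tyr-GTA-1-8: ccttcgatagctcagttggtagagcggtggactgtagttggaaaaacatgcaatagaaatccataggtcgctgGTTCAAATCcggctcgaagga
tRNA:Gln-CTG-2-3: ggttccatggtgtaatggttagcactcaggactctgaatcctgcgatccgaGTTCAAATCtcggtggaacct
tRNA:Leu-TAA-2-1: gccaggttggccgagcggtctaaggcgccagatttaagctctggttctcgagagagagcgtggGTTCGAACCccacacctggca
tRNA:Pro-CGG-2-1: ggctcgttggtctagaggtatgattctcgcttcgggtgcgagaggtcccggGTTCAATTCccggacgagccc
tRNA:Asp-GTC-1-5: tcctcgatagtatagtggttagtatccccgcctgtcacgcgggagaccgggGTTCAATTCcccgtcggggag
tRNA:Lys-TTT-1-1: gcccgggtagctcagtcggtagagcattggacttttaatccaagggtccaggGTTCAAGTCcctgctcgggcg
GTTCNANNC was found in 274 of the 295 genes (92.9%), and its stricter form GTTCGANNC in 162 (54.9%). The core began at base 52 in the Gln, Pro and Asp genes and at base 74 in the Tyr gene, counted from the first base of each gene.

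The DNA under the 3 strongest reproducible summits at tRNA genes is printed next, because these windows carry the peak itself. Each window holds the summit base and 50 bp to either side, read on the plus strand of the same assembly, with GCCAT or its reverse complement ATGGC in capitals. The Tyr window is chr3R:8669323-8669423, the Gln window is chr2L:2009761-2009861 and the Phe window, at tRNA:Phe-GAA-1-2, is chrX:6744263-6744363.
tRNA:Tyr-GTA-1-8 summit window: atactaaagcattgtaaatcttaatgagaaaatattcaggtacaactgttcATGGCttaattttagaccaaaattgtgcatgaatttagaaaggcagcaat
tRNA:Gln-CTG-2-3 summit window: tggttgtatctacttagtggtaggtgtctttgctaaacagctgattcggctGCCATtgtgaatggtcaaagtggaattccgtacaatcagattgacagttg
tRNA:Phe-GAA-1-2 summit window: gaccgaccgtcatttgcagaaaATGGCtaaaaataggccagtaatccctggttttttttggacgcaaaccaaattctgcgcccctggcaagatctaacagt
All 3 windows held 1 match to GCCAT. A match describes letters in a window and does not show a bound site.

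Among the 295 genes, 5 are annotated as pseudogenes and 16 contain an intron. Their lengths ran from 71 to 186 bp with a median of 73 bp. They covered 22 amino acid classes, with the initiator methionine and selenocysteine counted apart, and 44 anticodons. Their number was 41 on 2L, 100 on 2R, 49 on 3L, 79 on 3R, 26 on X and 0 on chromosome 4. The genes had 100 distinct sequences, and 238 genes had at least 1 exact copy, up to 13 copies of 1 sequence. Reads from inside such copies cannot be assigned to a gene, and the labels do not say how the submitters treated them. When neighbours within 2000 bp were joined, 204 genes fell in 70 clusters and 91 stood alone. By distance to the nearest annotated start of a protein-coding gene, 34 tRNA genes lay within 500 bp, 93 between 500 and 2000 bp and 168 farther away. Genes of a cluster can share a summit and are not independent replicates.

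Strong Phol peaks were about as common near tRNA genes as in equal tiles of the genome, and far less common than at gene starts. The reproducible list placed a summit within 250 bp of 13 of 295 tRNA genes (4.41%, 95% Wilson interval 2.59 to 7.39%), from 12 summits at 12 separate loci. Equal tiles of 573 bp over the same arms, the length of a typical tRNA gene with its flanks, held a reproducible summit in 4.25% of cases. Of the starts of the 17874 genes not annotated as tRNA, which include the 5 tRNA pseudogenes, 26.9% had one, and of the starts of protein-coding genes, 32.5%. Small nucleolar RNA (snoRNA) genes, which are mostly short and often lie in introns, had one at 14 of 269 starts (5.20%). The starts of long noncoding RNA genes had one in 7.67% of cases.

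The replicates gave similar shares when the 10264 strongest peaks of each were used. Replicate 1 had a summit at 18 tRNA genes, replicate 2 at 13 and replicate 3 at 14, a mean share of 5.08% ± 0.897 (SD, n = 3). The counts differed little, with replicate 1 the highest. Tiles had 4.22% ± 0.0191, so the tRNA genes exceeded them by 0.860 ± 0.882 percentage points, higher in 3 of 3 replicates (1.86, 0.183 and 0.540 points; exact sign-flip permutation test, p = 0.25) but with a mean difference smaller than its SD. Against the starts of protein-coding genes the tRNA share differed by -27.0 ± 3.16 points and was lower in 3 of 3 replicates (exact two-sided sign-flip permutation test, p = 0.25). With 3 replicates 0.25 is the smallest p this test can give, so no difference in these data can pass 0.05. Only 7 genes had a summit among the 10264 strongest peaks of all 3 replicates, out of 25 with one in any replicate (28.0%). For tiles with a summit in any replicate the corresponding share was 58.2%.

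Most of the tRNA genes with a reproducible summit belonged to the minority that lie beside a protein-coding start. In the reproducible list 9 of the 34 tRNA genes within 500 bp of a coding start had a summit (26.5%, Wilson interval 14.6 to 43.1%). The share for the starts of protein-coding genes themselves, 32.5%, lay inside that interval. These 34 genes were not set against tiles within 500 bp of a coding start, so an excess over such tiles was not tested. Between 500 and 2000 bp 0 of 93 tRNA genes had a summit, for which the Wilson interval reached 3.97%. Farther away 4 of 168 had one (2.38%). Tiles over 2000 bp from a coding start had a reproducible summit in 2.30% of cases, close to the 2.38% of tRNA genes at that distance. Of the 12 summits themselves, 9 lay within 500 bp of a coding start. In the replicates' strongest peaks the genes within 500 bp had a summit in 26.5%, 29.4% and 20.6% of cases. Those beyond 500 bp had one in 3.45%, 1.15% and 2.68%. In counts these were 9, 10 and 7 near genes and 9, 3 and 7 far genes. The near genes were thus the majority in replicate 2 only. All 3 values of the near genes lay above all 3 of the far genes, and the difference was 23.1 ± 5.18 points, higher in 3 of 3 replicates (exact sign-flip permutation test, p = 0.25, the smallest possible). tRNA genes beyond 500 bp did not exceed tiles at the same distance, with a difference of -0.132 ± 1.18 points.

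**Figure D1:**
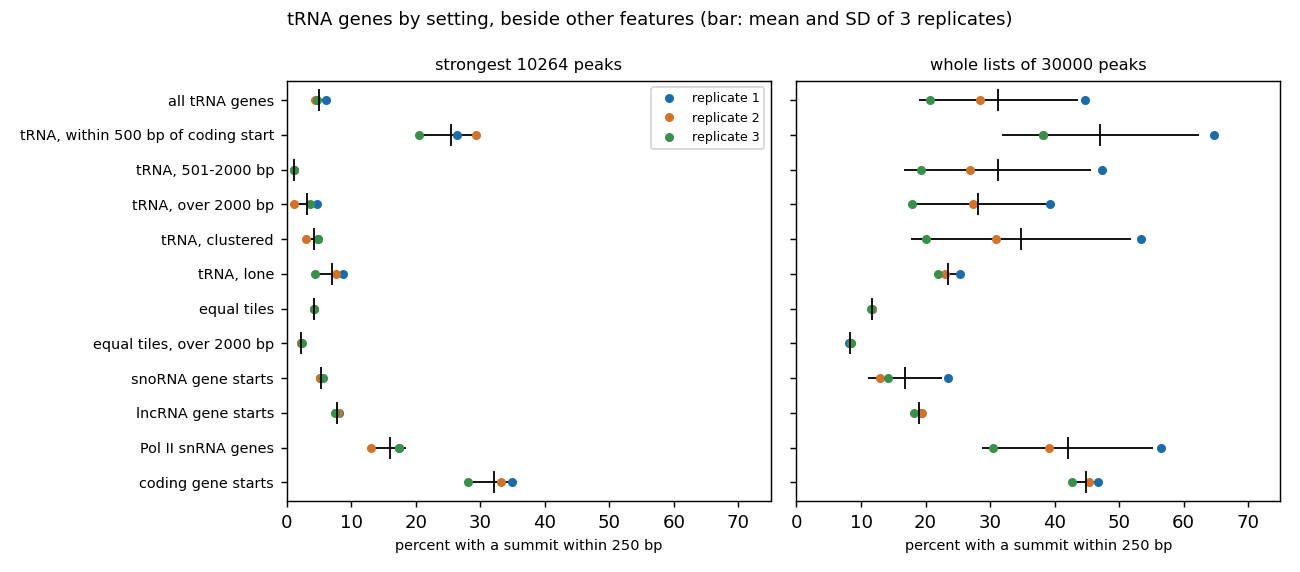
Percent of tRNA genes, by setting, and of other features that had a Phol summit within 250 bp. The left panel uses the 10264 strongest peaks of each replicate and the right panel the whole lists; points are replicates, and bars give the mean and SD of 3. Among strong peaks the tRNA genes beside coding starts stood apart from all other tRNA genes. In the whole lists every tRNA group stood above the tiles, with wide spread between replicates except for lone genes.

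The 12 reproducible summits kept outside the genes. None lay inside a tRNA gene, 7 lay upstream and 5 downstream on the gene's strand, and the median distance was 200.5 bp. The closest, 82 bp upstream of tRNA:Pro-CGG-2-3, was the only one within 100 bp and was singled out after its value was seen. Around all tRNA genes the density of reproducible summits was 0 inside the genes, and the count within 1 to 100 bp was 1. The genes cover only 22390 bp, and the arms had 76.8 reproducible summits per Mb, so few would fall inside at that density. Among the strongest peaks of replicates 1, 2 and 3, 0, 1 and 1 summits lay inside a gene. Between 100 and 300 bp the density in the replicates' strongest peaks was 2.30, 1.69 and 2.45 times the mean of the arms, a mean of 2.15 ± 0.405. At 1 to 100 bp the same ratio was 0.686, 0.229 and 0, from 3, 1 and 0 summits. Thus in each replicate the strong summits were denser between 100 and 300 bp from a gene than within 100 bp of it. Density stayed above the mean of the arms farther out, at 1.45 ± 0.0832 between 300 and 1000 bp and 1.33 ± 0.0242 between 1000 and 2000 bp.

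The strongest of these peaks lay at tRNA:Tyr-GTA-1-8, a tyrosine tRNA gene inside the coding gene CG8036. It ranked 310 in the pooled list, and the summit was 199 bp upstream of the tRNA gene and 245 bp from the CG8036 start. Ranks are given here as a percent of the 30000 peaks of a list, with low values for strong peaks. In replicates 1, 2 and 3 the Tyr peak stood at 0.793%, 1.17% and 1.07%, a mean of 1.01% ± 0.195. It was the only 1 of the 12 in the strongest 1000 peaks, and all 3 replicates placed it near the top of their lists.

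The next 3 peaks lay within 100 bp of coding starts. At tRNA:Gln-CTG-2-3, a glutamine tRNA gene, the summit ranked 2462, at 7.37%, 7.38% and 10.5% in the replicates, and lay 48 bp from the start of CG4238. At tRNA:Phe-GAA-1-2, for phenylalanine, it ranked 2832, at 7.39%, 8.52% and 11.2%, and lay 75 bp from the start of RpL17, which encodes a protein of the large ribosomal subunit. At tRNA:His-GTG-1-3, for histidine, it ranked 3333, at 6.50%, 13.9% and 15.1%, and lay 85 bp from the start of CG8490. At all of these the peak was strongest in replicate 1 and weakest in replicate 3. The Phe peak in replicate 3 had its summit over 250 bp from the gene, so there the gene's own nearest summit stood at 39.2%.

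The following peaks were weaker. The peak at tRNA:Leu-TAA-2-1, for leucine, ranked 4367, at 12.3%, 21.8% and 11.7%, with its summit 358 bp from CG13605. The peak at tRNA:Pro-CGG-2-1, for proline and inside Bx, ranked 4658, at 13.7%, 19.7% and 14.0%, with its summit 230 bp from a start of Bx, which encodes a LIM-only protein. In replicate 2 the matching summit lay over 250 bp from this tRNA gene. In both, replicate 2 was the weakest. The peak at tRNA:Thr-AGT-1-4, for threonine, ranked 6035, at 13.3%, 21.6% and 32.2%, with its summit 367 bp from CG31279. The peak at tRNA:Asp-GTC-1-5, for aspartate, ranked 6597, at 14.1%, 31.1% and 25.9%, with its summit 96 bp from Sema1a, a semaphorin gene of axon guidance. Replicate 1 was the strongest at both of these. tRNA:Pro-CGG-2-3, inside the gene not, ranked 9918 and stood at 33.9%, 29.7% and 48.1%.

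Only 3 of the 12 summits lay over 500 bp from a coding start. The peak at tRNA:Lys-TTT-1-1, a lysine tRNA gene inside Btk, ranked 7470, at 25.6%, 28.5% and 24.0%, a mean of 26.0% ± 2.26. Its summit was 6091 bp from the nearest coding start and 234 bp downstream of the tRNA gene, and its replicates lay close together. The peak at tRNA:Ser-TGA-2-1, for serine, ranked 9520, at 26.4%, 50.9% and 26.6%, and lay 2068 bp from l(2)k09913. The peak shared by tRNA:Arg-CCT-1-2 and tRNA:Arg-CCT-1-3, for arginine, ranked 10135, at 33.4%, 44.8% and 31.6%, and lay 4420 bp from CG16898. In replicate 2 both the Ser and the Arg peak fell outside the strongest 10264. The next highest locus over 2000 bp from a coding start was a group of 3 cysteine and 2 lysine tRNA genes inside Cht7, a chitinase gene. Its best summit ranked 10298 in the pooled list, just outside the reproducible list.

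**Figure D2:**
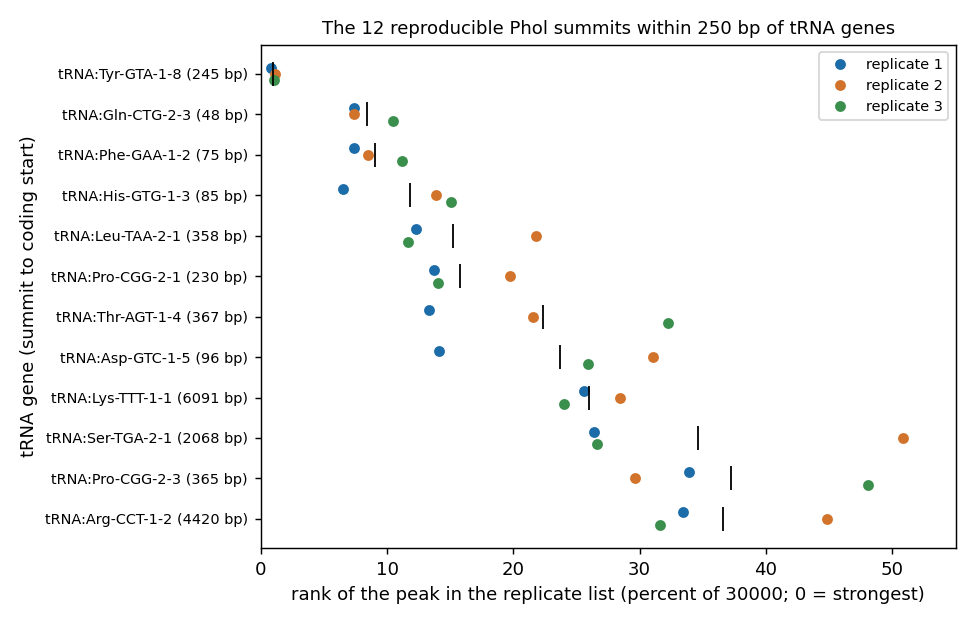
Rank of each of the 12 reproducible summits in the 3 replicate lists, as a percent of 30000 peaks with the strongest at 0; labels give the tRNA gene and the distance from summit to coding start, and black marks the mean. The Tyr peak lay near 1% in all replicates, and several peaks lower in the figure differed by more than 10 percentage points between replicates.

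By signal the 12 summits lay around the middle of the reproducible list. Their median rank was 17.8% of the 30000 pooled peaks, beside 17.1% for all reproducible peaks. GCCAT or its reverse complement was found in 7 of the 12 windows (58.3%) and in 19.6% of windows at all reproducible summits. GCCATNTT, a longer form of the Pho-type site, was found in 2 of 12, at tRNA:Phe-GAA-1-2 and tRNA:Thr-AGT-1-4, and in 6.63% of all. The B box core GTTCGANNC was found in 2 of 12 windows and 0.672% of all, although no window reached the nearest tRNA gene. TATCGATA and GGTCACAC, letters found at many fly coding promoters, were found in 0 of 12 windows, and in 3.11% and 2.03% of all. Each word was searched on both strands, and GCCATNTT matches also count for GCCAT. The G+C content of the 12 windows averaged 40.7%, against 33.5% for all reproducible summits.

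The weaker part of the lists differed from the strong part: there tRNA genes had more summits than tiles. The whole pooled list placed 82 summits within 250 bp of 96 of 295 tRNA genes (32.5%, 95% Wilson interval 27.4 to 38.1%), against 11.7% of tiles and 38.9% of the same 17874 gene starts. The pooled list held 6 such summits in ranks 1 to 5132 and 6 in ranks 5133 to 10264, or 0.117% of the peaks in each block. It held 33 in ranks 10265 to 20000 (0.339%) and 37 in ranks 20001 to 30000 (0.370%). So 70 of the 82 summits lay outside the reproducible list, and the median rank of the 82 was 64.6% of the list. Their median deposited -log10 q was 0.895, against 2.01 for all pooled peaks.

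**Figure D3:**
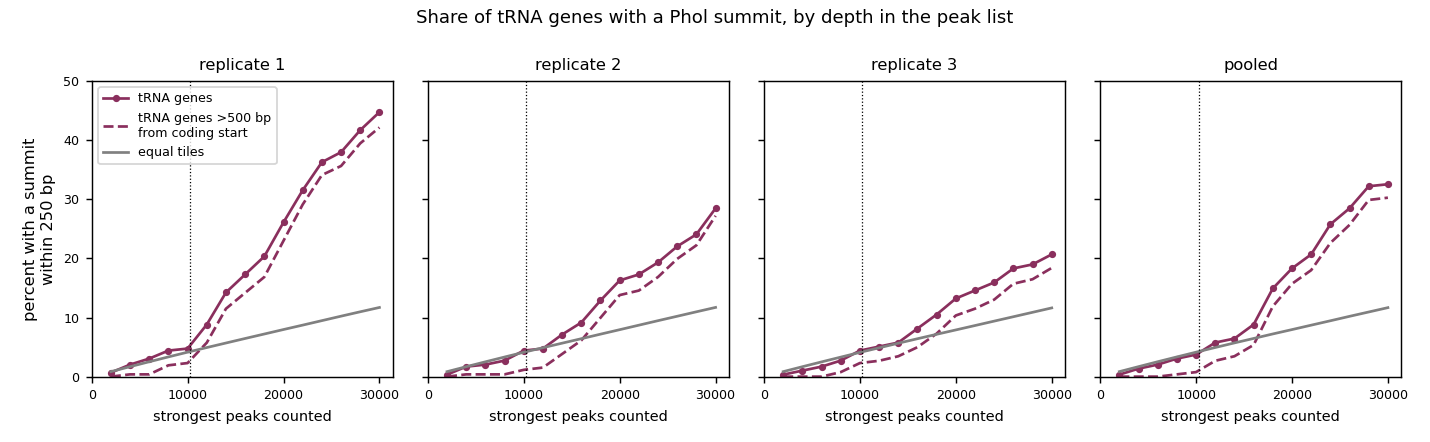
Percent of tRNA genes with a summit within 250 bp as more peaks of each list are counted from the strongest down. Grey lines are equal tiles, dashed lines tRNA genes over 500 bp from a coding start, and the dotted line marks 10264 peaks. The tRNA and tile lines ran close together at first and parted beyond about 14000 peaks in the pooled list. They parted farthest in replicate 1 and least in replicate 3.

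The excess in the whole lists was present in every replicate but unequal. Replicate 1 had a summit at 132 tRNA genes (44.7%), replicate 2 at 84 (28.5%) and replicate 3 at 61 (20.7%), a mean of 31.3% ± 12.3 (SD, n = 3), while tiles had 11.7% ± 0.0465. The difference was 33.0, 16.8 and 9.05 points, a mean of 19.6 ± 12.2, higher in 3 of 3 replicates (exact sign-flip permutation test, p = 0.25, the smallest possible). Replicate 1 had the highest share and replicate 3 the lowest, and without replicate 1 the mean difference was 12.9 points. When loci were counted once, with neighbours within 500 bp joined, 87, 62 and 47 of 199 loci had a summit. A locus of several genes spans more than 1 tile, so these shares are not set against tiles. Compared with the starts of protein-coding genes, at 44.9% ± 2.05, the tRNA share differed by -2.04, -16.8 and -22.1 points in the 3 replicates.

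The excess was also present far from coding starts. tRNA genes over 2000 bp from any coding start had a summit in 39.3%, 27.4% and 17.9% of cases, against 8.31% ± 0.215 for tiles at that distance, a difference of 19.9 ± 10.9 points in the same direction in 3 of 3 replicates. Those within 500 bp had 22, 13 and 13 summit-bearing genes of 34. When only ranks beyond 10264 were counted, near and far genes gave 23.5% ± 12.8 and 27.1% ± 11.5, a difference of -3.55 ± 6.86 points, which is within its SD. Over the whole lists, genes inside coding genes had 34.3% ± 13.5 and those outside 28.7% ± 11.4. Genes without an identical copy had 29.8% ± 8.04 and genes with copies 31.7% ± 13.3, a difference of -1.83 ± 5.26 points. That difference combined opposite signs: among the strongest peaks genes without a copy had the higher share in 3 of 3 replicates (8.77% against 4.20%), and beyond rank 10264 the lower share in 3 of 3 (21.1% against 28.0%; exact sign-flip permutation test, p = 0.25 for each, the smallest possible).

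In position, too, the whole lists differed from the strong peaks. In the pooled list 10 of the 82 summits lay inside a tRNA gene, 42 upstream and 30 downstream, and the median distance was 95 bp. Inside the genes the summit density was 3.98, 1.99 and 1.79 times the mean of the arms in replicates 1, 2 and 3. Within 1 to 100 bp it was 4.38, 2.58 and 0.861 times, so replicate 3 had no excess at this distance. Between 100 and 300 bp the replicates were alike, at 2.25, 2.05 and 2.31 times. Farther out the ratio was 1.44 ± 0.0753 between 300 and 1000 bp and 1.49 ± 0.0380 between 1000 and 2000 bp. The wider surroundings were thus also above the mean of the arms. In replicate 3 the 1.79 inside the genes came from 9 summits, beside 1.36 and 1.45 in these flanks. Upstream the ratio over 1 to 300 bp was 2.73 ± 0.806 and downstream 2.00 ± 0.599, with upstream higher in each replicate. At the 70 weaker pooled summits GTTCNANNC was found in 14 windows, against 2.90% of windows at all weaker summits; windows in or beside a tRNA gene can hold its own B box. GCCAT was found in 13 (18.6%) against 23.0%, and GCCATNTT in 2 (2.86%) against 4.39%.

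**Figure D4:**
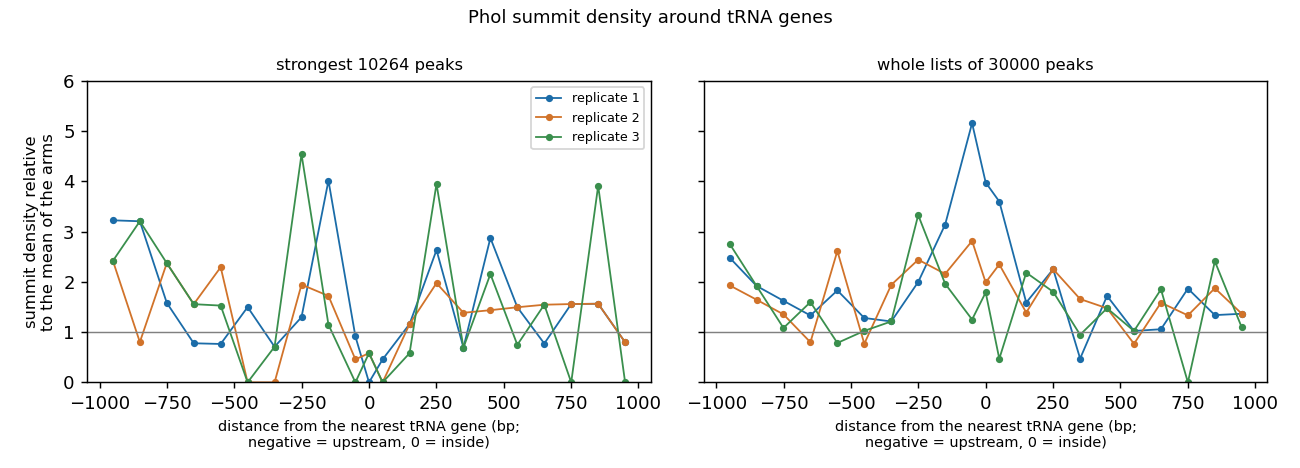
Density of Phol summits in bins of 100 bp around tRNA genes, relative to the mean of the arms (grey line at 1), for each replicate. In the strongest peaks (left) the bins adjoining the gene lay between 0 and 0.914, and in the whole lists (right) replicate 1 rose to 5.16 in the 100 bp upstream while replicate 3 stayed low there.

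A minority of the tRNA genes with a whole-list summit, weak or strong, had one in all 3 replicates. Over the whole lists 161 tRNA genes had a summit in at least 1 replicate, 77 of them in 1, 52 in 2 and 32 in all 3. The 32 were 19.9% of the 161, and for tiles the same share was 37.2%. These shares are not on equal terms. Replicate 1 had a summit at 132 tRNA genes and replicate 3 at 61, which limits the tRNA share, whereas they had nearly equal tile counts (27282 and 27108). Measured against all members instead, 10.8% of tRNA genes and 6.67% of tiles had a summit in all 3 replicates. The 32 genes covered 26 loci and 16 amino acid classes, 22 were clustered, and 11 lay over 2000 bp from a coding start. Of all 295 tRNA genes 204 were clustered, about the same share, and 168 lay over 2000 bp away. Of the 32, 11 were among the genes with a reproducible summit. Leucine genes gave 7 of the 32, beside 22 of all 295. Among them tRNA:Leu-CAG-1-2 and tRNA:Leu-CAG-1-3 stood at the same rank in each replicate, so they are not independent. tRNA:Leu-TAA-1-1, inside bon and 11610 bp from its start, stood at 43.5%, 47.4% and 40.8%, a narrow range across replicates, although it was outside the reproducible list. tRNA:Ser-AGA-2-4 stood at 25.9%, 36.3% and 40.2% in the replicates and had no summit in the pooled list. Both were singled out after their values were seen.

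Clustered and lone genes could not be ordered. In the reproducible list 7 of 204 clustered genes (3.43%) and 6 of 91 lone genes (6.59%) had a summit. In the replicates' strongest peaks the clustered share minus the lone share was -3.89, -4.75 and 0.506 points, a mean of -2.71 ± 2.82 (exact sign-flip permutation test, p = 0.5). In the whole lists the sign turned, with differences of 28.2, 7.81 and -1.88 points (mean 11.4 ± 15.3, p = 0.5 by the same exact test). Lone genes hardly differed between replicates, with 23, 21 and 20 of 91, whereas clustered genes numbered 109, 63 and 41 of 204. The spread between replicates lay mostly in the clustered genes.

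The 5 largest clusters held no reproducible summit. Only 7 of all 204 clustered genes (3.43%) had one, so an absence in 5 clusters does not set large clusters apart. A group of 6 glutamate and 2 initiator methionine genes at chr2R:19725620-19729353 had a whole-list summit at 7, 3 and 1 of its 8 genes in replicates 1, 2 and 3. A group of 5 isoleucine and 2 leucine genes at chr2R:13430282-13432794 had 6, 4 and 3 of 7, and 5 arginine genes with 1 asparagine gene at chr3R:8139533-8141042 had 5, 3 and 1 of 6. In these 3 clusters replicate 1 had the most genes and replicate 3 the fewest. By contrast the 4 cysteine and 2 lysine genes at chr3L:3095737-3097590 had 3 of 6 in every replicate, and 5 arginine and 2 serine genes at chrX:14014814-14017284 had 1, 2 and 2 of 7. On the X as a whole 4 of 26 tRNA genes had a whole-list summit in each replicate (15.4%). This was the lowest whole-list share of the 5 arms with tRNA genes, against 36.0% ± 16.6 on 2R. The reproducible list gave another order. There the X had the highest share, 2 of 26 (7.69%), and the other arms ranged from 2.04% on 3L to 7.32% on 2L. These counts on the X are small, and no tile share by arm is given here.

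By amino acid, reproducible summits were scattered. Arginine and proline genes had 2 each, of 26 and 17 genes, and aspartate, glutamine, histidine, leucine, lysine, phenylalanine, serine, threonine and tyrosine genes had 1 each. The highest share among classes of 5 or more genes was that of histidine, 1 of 6, and 11 classes had none. In the whole lists the initiator methionine genes, which start all protein synthesis, had the highest mean share, with 5, 4 and 2 of 6 genes in the replicates (61.1% ± 25.5). They lie at 4 loci, so these counts rest on few summits, and 0 of 6 had a reproducible one. The lowest share among classes of 5 or more genes was that of tryptophan, with 1, 1 and 0 of 8 genes (8.33% ± 7.22). The elongator methionine genes had 3, 0 and 0 of 6, and the single selenocysteine gene had none in any list. Leucine genes, with 11, 9 and 8 of 22 (42.4% ± 6.94), varied less between replicates than most. The ranges of mean ± SD overlapped for many classes. They did not for tryptophan and leucine, a pair singled out after the values were seen, and tryptophan rested on 1, 1 and 0 genes. Classes were not tested against each other, and genes within a class share sequence and clusters.

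**Figure D5:**
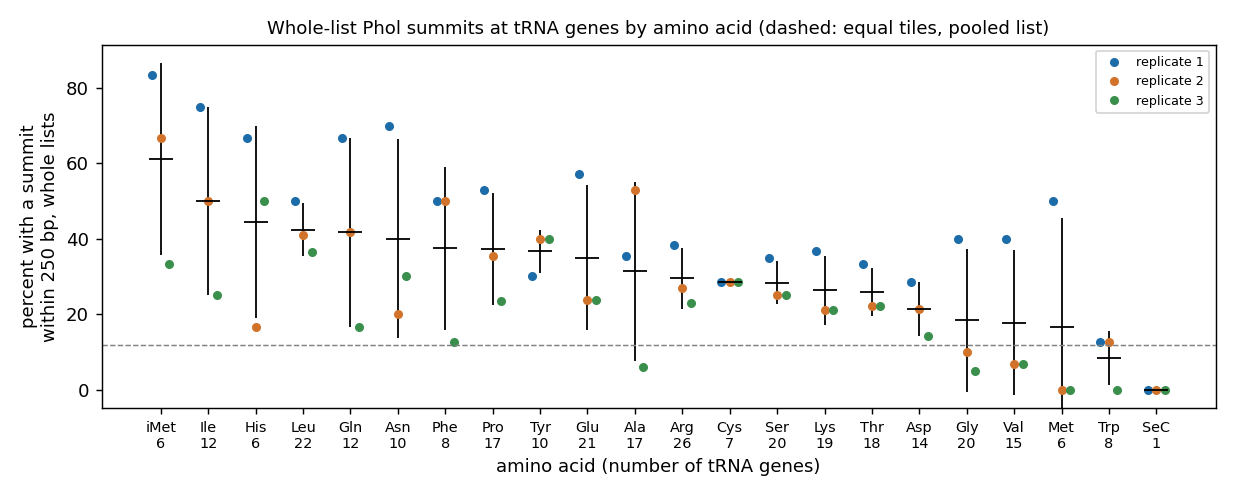
Percent of tRNA genes with a summit within 250 bp in the whole replicate lists, by amino acid, with the number of genes under each name. Points are replicates, black marks show the mean and SD of 3, and the dashed line is the 11.7% of equal tiles in the pooled list. Replicate 1 was highest in most classes. The error bars of neighbouring classes overlap, except for tryptophan and the single selenocysteine gene.

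Other genes taken by symbol as those of RNA polymerase III were examined by the same distance rule. Which polymerase transcribes each of them in the fly, RNaseP:RNA included, was not checked. Of 9 such genes that are not 5S ribosomal RNA genes, 1 had a reproducible summit, snRNA:U6:96Ac, a gene for the U6 RNA of the spliceosome, at rank 7782 in the pooled list. It ranked 4990 in replicate 1 and 9574 in replicate 2 and had no summit in replicate 3. RNaseMRP:RNA, the RNA of a ribonuclease that processes ribosomal RNA, ranked 14350 in the pooled list and 15462, 19076 and 12820 in the replicates, so it was present in all 3 lists outside the strong part. RNaseP:RNA, whose product trims tRNA precursors, had a summit in replicate 2 alone, at rank 27210, and snRNA:7SKa in replicate 1 alone, at rank 13513. The 5S genes, a tandem array of near-identical copies, had none at 100 genes in any list, and peaks there depend on how reads with several matches were treated, which was not tested. Small nuclear RNA genes of RNA polymerase II had a reproducible summit at 4 of 23 and a whole-list summit at 13, 9 and 7 of 23 in the replicates (42.0% ± 13.3). As with the tRNA genes, replicate 1 had the most and replicate 3 the fewest.

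Protein-coding genes for the polymerase III machinery and for tRNA processing often had strong peaks at their own starts. Of 36 such genes, 23 had a reproducible summit within 500 bp of a start (63.9%), beside 40.8% of all protein-coding genes. In the replicates' strongest peaks the share was 72.2% ± 12.7 (SD, n = 3), beside 40.5% ± 3.13 of all protein-coding genes. The list was chosen by gene symbols with earlier results of these data known, so its count is a description. Of the TFIIIB subunits, Bdp1 and Brf had strong peaks, at ranks 229 and 396. Trf, the TBP-related subunit, had no reproducible summit; among the replicates' strongest peaks it ranked 9422 and 8523 in replicates 1 and 2 and had none in replicate 3. Bdp1 ranked 327, 163 and 260 and Brf 390, 369 and 453 in the replicates, so Bdp1 and Brf were among the strongest peaks in all 3. Pbp49, a subunit of the complex that recognises small nuclear RNA promoters, ranked 356. The polymerase III subunit Polr3E ranked 571, and Trmt6, a subunit of a tRNA methyltransferase, ranked 653. Other subunits had none in the reproducible list, among them Polr3A and Polr3B, the largest subunits, which among the replicates' strongest peaks had a summit in replicate 1 only (ranks 8986 and 8505). Maf1, a repressor of polymerase III, and Tsen54, a tRNA splicing endonuclease gene, had none in any of the replicates' strongest peaks.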

How the data were processed

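Phol ChIP-seq peak lists of 3 replicates, of the pooled replicates and of reproducible peaks were used, on the dm6 assembly per the labels. The authors deposited per peak a signal score, a -log10 q and the offset of the summit; the scores are the peak caller's own and were used only to rank peaks within a list. All reproducible peaks carry the same -log10 q of 4.35, so it does not order them. The aligner, the caller, its thresholds and the treatment of reads with several matches were not given in the sources used here. The control was not analysed here.

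tRNA genes, other genes and coding starts came from the Ensembl release 115 annotation of the same assembly; all 295 tRNA genes matched RefSeq by symbol and position. Summits within 250 bp of a gene were counted with Python 3.11.15, pandas 2.3.3, numpy 2.4.6 and scipy 1.17.1. Tiles of 573 bp gave the background. Lists were compared at equal numbers of peaks. Wilson 95% intervals cover counting error only. Differences over replicates were tested with the exact sign-flip permutation test, two-sided. The counting was tested on simulated data. Named were the 10 loci (genes within 500 bp joined) with the highest reproducible signal, the 3 highest over 2000 bp from a coding start, the 5 largest clusters, the amino acids with the highest and lowest share among those with 5 or more genes, initiator methionine and selenocysteine genes, and other polymerase III genes with a summit. The members, lists and rules were chosen with earlier results of these data known. The comparison of whole lists with tiles and the motif GTTCNANNC were added after seeing the data. Of the names sought for the machinery list, 8 were not used here. Alternatives tried were other distances, list lengths, joining distances and gene sets, and leaving out each replicate.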

Additional observations from a re-analysis of the deposited data

How the results depend on the processing

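The share of tRNA genes with a reproducible summit, 4.41%, moved with the distance allowed: 0% for summits inside the gene, 0.339% within 100 bp, 7.46% within 500 bp and 1.02% where the peak interval had to overlap the gene. It was 2.03% for the strongest 5132 reproducible peaks, 32.5% for the whole pooled list and 7.02% for genes without an identical copy, and 3.05 to 4.07% where, with a replicate left out, a summit had to match a strong peak of both others. The replicates' mean of 5.08% was 2.26% with lists of 5132 peaks, 31.3% with whole lists, 0.678% within 100 bp and 9.27% within 500 bp, and 4.58 to 5.42% with a replicate left out. Clustered minus lone, -2.71 points, reversed to 11.4 in whole lists; it ranged from -4.32 without replicate 3 to -1.69 without replicate 2. At 100 bp it was -0.609, and it was -1.47 and -3.66 with clusters joined at 1000 and 5000 bp. Near minus far from coding starts, 23.1 points, ranged from 20.5 to 25.6 with a replicate left out, kept its sign, and changed in size: 2.56 within 100 bp, 31.6 within 500 bp, 32.2, 9.44 and 4.44 with near set at 250, 1000 and 2000 bp, and 17.4 to 17.8 with shorter or whole lists. The median rank of 17.8% was 33.1% within 100 bp, which rests on 1 summit, and 13.5% when ranked in replicate 1, and 16.5 to 20.6% with a replicate left out. The whole-list excess over tiles, 19.6 points, ranged from 12.9 without replicate 1 to 24.9; it was 9.64 within 100 bp, 25.8 within 500 bp, 11.8 for lone genes and 0.860 for the strongest 10264 peaks. No other alternative listed here reversed a direction. Outside this list, near minus far was -3.55 ± 6.86 points when only ranks beyond 10264 were counted. Clustered minus lone was 0.0673 ± 2.02 points in the strongest peaks for genes over 500 bp from a coding start. The 36 ranks of named genes with a replicate left out moved by less than 1 SD. The mean of 3 values always moves by less than their SD when 1 is left out, so this is no test of robustness. The causes of these shifts were not tested. No paired analysis was possible because all samples form 1 group. Read depth is unknown from peak lists, so the power to find weak peaks in each replicate cannot be stated.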
